A study of Mus musculus with 7 samples.

Results

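Of the sites at which CTCF and cohesin occurred together in mouse liver without serving as loop anchors (other CAC sites), 3004 carried no CTCF motif and lay more than 1 kb from every protein-coding transcription start. They were taken from 52436 classed CTCF sites as autosomal other CAC sites without a deposited motif score, with the distance measured from the CTCF summit to the starts in the GENCODE annotation of mm9 (assembly NCBIM37). They made up 11.4% of the 26257 other CAC sites on the autosomes, 16.7% of those that were distal and 48.5% of the 6193 without a motif. Absence of the motif, distance from promoters and membership in the other CAC class are therefore how these motif-less distal sites were chosen and not results.

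The libraries came from livers of male mice of the outbred strain Crl:CD1(ICR), 8 weeks old and with no treatment or genetic change given. An Abcam antibody to Rad21, a subunit of cohesin, was used for 3 libraries, and a Millipore antibody to CTCF for 4. The authors pooled the reads of each factor before calling peaks. Every CTCF and Rad21 value below therefore belongs to a pool of livers, and no spread between animals can be given. The flags for other proteins, given further below, rest on public liver data. Whole liver holds other cells besides hepatocytes, and the lists do not separate them.

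CTCF is a zinc finger protein that reads a long DNA motif, and cohesin is the ring-shaped complex that extrudes chromatin loops until it meets CTCF bound in the right orientation. Cohesin also collects at active enhancers and promoters without CTCF, at places known as cohesin-non-CTCF (CNC) sites. CTCF peaks without the motif are known from many tissues and are common at CpG-rich promoters, while those far from promoters are described less often.

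Sequences at the motif-less distal sites are shown first for the stretch that came closest to the CTCF motif. Each window of 201 bp around a CTCF summit was scored on both strands with the JASPAR matrix that the study names, and the best stretch of 19 bp is given for sites named in the text. The stretches are turned to the direction of the matrix, and capitals mark bases equal to the base that the matrix prefers at that position. These sites were picked to span the range of scores, from the uppermost below the motif limit down to a site with little likeness to the motif:

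Preferred bases: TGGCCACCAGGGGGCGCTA

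Stat5b, chr11:100675905-100675923, plus strand: caGCCACCgGGcGGCtCct

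Hist1h2ah, chr13:22120718-22120736, minus strand: aGGaCgCacGGtGGCGCcc

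Epcam, chr17:87971113-87971131, minus strand: gGaCaACCAGatGatGCcA

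Nxph3, chr11:95383090-95383108, minus strand: TGctCgCCAGGcGtCGCTA

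Chd8, chr14:52877652-52877670, plus strand: cccgCcgCtGGGGGCGCTg

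Prox1, chr1:191993248-191993266, minus strand: aGagCctCAGGGGtCGCTA

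Cyp2d9, chr15:82287951-82287969, plus strand: atGtCACagGGtGGgatTc

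The scores of these stretches were 7.76 at Stat5b and Hist1h2ah, 7.44 at Epcam, 7.22 at Nxph3, 5.11 at Chd8, 3.77 at Prox1 and -1.43 at Cyp2d9. The lowest score that the authors deposited as a motif was 7.77. Nxph3 shared 14 and Prox1 13 of 19 bases with the preferred ones, whereas Cyp2d9 shared 9.

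The second set gives 121 bp around the summits of members with many CTCF fragments, all between genes and on the plus strand. Capitals mark the 6 letters AGCGCC, whose complement on the other strand, GGCGCT, lies near the end of the preferred sequence, and short pieces of the motif core on either strand. These pieces are CCANNAGGG, then AGGGGGC, which is part of the preferred bases, and the variant AGGTGGC:

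Cln6, chr9:62676610-62676730: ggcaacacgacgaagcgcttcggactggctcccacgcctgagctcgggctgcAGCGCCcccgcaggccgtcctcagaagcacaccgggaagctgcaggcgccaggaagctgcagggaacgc

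Chd8, chr14:52877595-52877715: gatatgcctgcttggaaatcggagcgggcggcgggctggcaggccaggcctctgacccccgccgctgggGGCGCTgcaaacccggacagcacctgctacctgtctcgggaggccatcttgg

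Crebbp, chr16:4268154-4268274: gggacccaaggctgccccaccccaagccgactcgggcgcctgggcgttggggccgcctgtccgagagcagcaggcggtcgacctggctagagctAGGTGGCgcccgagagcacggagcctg

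Nub1, chr5:24158006-24158126: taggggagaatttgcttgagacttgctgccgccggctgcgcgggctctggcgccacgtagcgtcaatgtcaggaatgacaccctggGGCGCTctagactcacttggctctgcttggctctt

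The third set shows members with words of hepatocyte transcription factors within 60 bp of the summit, in introns of Maml3 and Ppp1r3g and between genes at the others. Capitals mark TGTTTAC or TGTTTGC (FOXA, a pioneer factor of liver enhancers), CTTGGCA (NFI), TTGCNNAA (C/EBP), TTCNNNGAA (STAT5) and the CTCF core pieces above, on either strand. At Maml3 the FOXA and NFI words overlap:

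Maml3, chr3:51844148-51844268: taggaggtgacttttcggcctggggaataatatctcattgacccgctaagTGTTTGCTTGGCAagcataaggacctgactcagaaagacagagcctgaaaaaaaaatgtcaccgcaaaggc

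Ppp1r3g, chr13:36051658-36051778: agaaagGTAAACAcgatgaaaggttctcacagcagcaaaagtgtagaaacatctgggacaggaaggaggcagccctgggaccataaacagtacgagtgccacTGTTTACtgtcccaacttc

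Vrk1, chr12:107715400-107715520: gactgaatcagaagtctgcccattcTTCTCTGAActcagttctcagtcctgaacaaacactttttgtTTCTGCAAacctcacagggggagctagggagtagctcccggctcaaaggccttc

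Apoa5, chr9:46064067-46064187: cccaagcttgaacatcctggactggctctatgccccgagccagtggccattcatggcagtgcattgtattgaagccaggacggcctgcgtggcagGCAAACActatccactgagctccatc

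Gh, chr11:106153352-106153472: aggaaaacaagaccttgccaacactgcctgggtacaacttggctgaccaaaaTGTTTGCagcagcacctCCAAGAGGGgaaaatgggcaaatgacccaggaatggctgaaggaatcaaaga

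Motif-less distal sites were weak CTCF sites. The number of fragments at the CTCF summit, recovered from the deposited fold and p-value, had a median of 71 with quartiles of 50 and 129, and ran from 34 to 2492. At the 15008 distal other CAC sites with a motif the median was 135, with quartiles of 76 and 247. The AUC, the chance that a motif-less site exceeded a site with motif, was 0.312, where 0.5 means no difference (KS D = 0.293), and the motif-less median was lower on 19 of 19 autosomes. Tests of this kind compare classes over autosomes, because peaks are not replicates. Each autosome gives 1 difference, and the p is from an exact two-sided sign-flip permutation test over all 524288 sign assignments, adjusted over 98 tests, which here gave 1.87e-05. The lowest CTCF score of any other CAC site was 129, which bounds all these sites from below.

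Rad21 was less reduced than CTCF. The number of Rad21 fragments at the summit had a median of 48 at motif-less distal sites and 53 at distal sites with motif (AUC = 0.453, lower on 16 autosomes and higher on 2, adjusted permutation p = 0.000267). The ratio of Rad21 to CTCF fragments was higher at the motif-less sites on 19 of 19 autosomes, with medians of -0.69 and -1.17 on the log2 scale (AUC = 0.660, adjusted permutation p = 1.87e-05). At CTCF scores of at least 300 this AUC was 0.571. More Rad21 than CTCF fragments were found at 19.5% of motif-less sites (95% Wilson interval 18.2 to 21.0%, counting error only) and at 5.24% of sites with motif (4.90 to 5.61%). Motif-less promoter sites had a like ratio, with a median of -0.64 on the log2 scale and more Rad21 than CTCF at 20.3% (18.9 to 21.7%). The pools differ in antibody and number of libraries, so this ratio compares classes and does not give the amount of either protein.

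**Figure D1:**
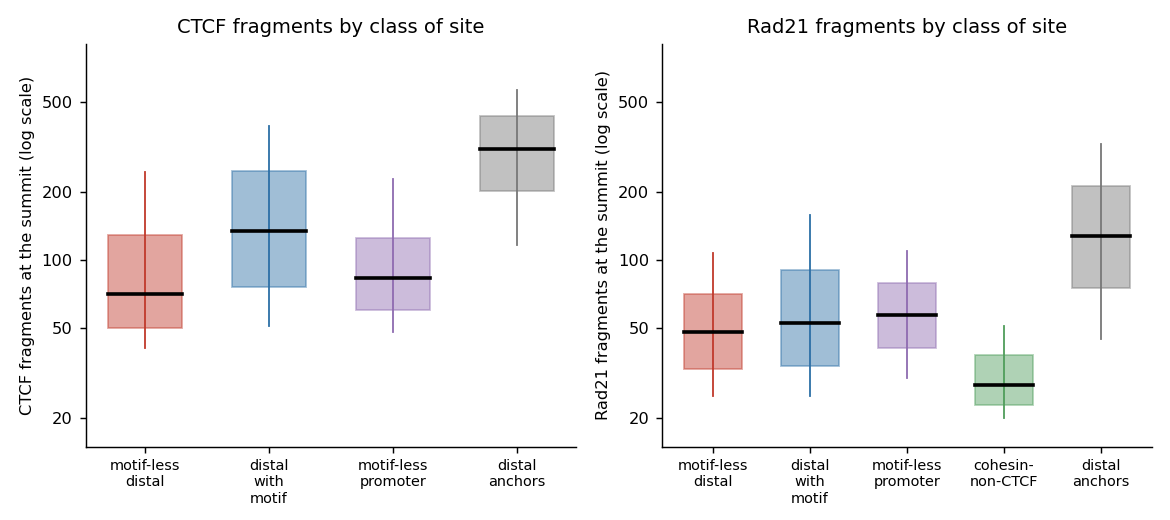
Fragments at the CTCF summit (left) and at the Rad21 summit (right), both on a log scale, by class of site. Black lines are medians, boxes run between the quartiles and thin lines from the 10th to the 90th percentile of sites. Motif-less distal sites (red) have a CTCF median of 71 against 135 at distal sites with motif (blue), while their Rad21 medians of 48 and 53 lie closer together and above the 28 of CNC peaks (green).

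The comparison of Rad21 turned when sites of like CTCF signal were set side by side. Sites were split into 4 bins at the quartiles of the motif-less class. The lowest bin, of up to 49 CTCF fragments, began at 34 fragments without the motif and at 26 with it. In this bin the median number of Rad21 fragments was 38 at 714 motif-less sites and 30 at 1359 sites with motif. From 50 to 70 CTCF fragments the medians were 43 and 35, and from 71 to 128 they were 50 and 44. In the bin of 129 fragments and more, motif-less sites had the lower median, 72 against 80. Averaged over the bins, the AUC for Rad21 was 0.581 in favour of the motif-less sites (adjusted permutation p = 7.08e-06), the opposite direction of the comparison without bins. The class with motif holds no loop anchors. With distal anchors added to it, 12419 of which had a pooled Rad21 peak, the AUC without bins fell to 0.327.

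Against the other cohesin classes, motif-less distal sites had more Rad21 than CNC peaks and less than promoter sites. Distal CNC peaks, numbering 13246, had a median of 28 Rad21 fragments (AUC of the motif-less distal sites = 0.779, higher on 19 of 19 autosomes, adjusted permutation p = 1.87e-05). With only CTCF scores of at least 300 and CNC peaks of Rad21 scores of at least 100 the AUC was 0.609 (adjusted permutation p = 0.00014). The 3189 motif-less CAC sites within 1 kb of a start had more Rad21, with a median of 57 (AUC = 0.423, lower on 19 of 19 autosomes, adjusted permutation p = 1.87e-05).

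The CTCF and Rad21 summits lay farther apart at motif-less distal sites than at distal other CAC sites with motif. The median distance between them was 40 bp at motif-less distal sites and 29 bp at sites with motif (AUC = 0.596, adjusted permutation p = 1.87e-05, longer on 19 of 19 autosomes). At promoters the median distance was 60 bp without and 54 bp with the motif, longer than at motif-less distal sites in both. Distal sites had their summits within 100 bp of each other at 78.6% without and 92.3% with the motif. The AUC for their distance was 0.561 over the bins of CTCF signal. Another pooled CTCF peak overlapped the same Rad21 peak at 101 motif-less sites (3.36%, 2.77 to 4.07%) and at 175 sites with motif (1.17%, 1.01 to 1.35%). Peaks were narrower without the motif, with a median width of 429 bp against 441 bp (AUC = 0.475, adjusted permutation p = 0.00345), and this too reversed at like CTCF signal, where the AUC was 0.546 (adjusted permutation p = 6.94e-05).

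The flags for other proteins differed between motif-less distal sites and distal other CAC sites with motif. They record overlap with peaks of Stag1 and Stag2, alternative subunits of cohesin, and of Top2b, a topoisomerase found at CTCF and cohesin sites, in public liver data that the authors used, and their names rest on the order in which the study describes unlabelled columns. Top2b was flagged at 70.5% of motif-less distal sites (2117 sites, 68.8 to 72.1%) and at 47.7% of those with motif (46.9 to 48.5%), a difference of 22.8 percentage points that was positive on 19 of 19 autosomes (adjusted permutation p = 1.87e-05). Other classes with a motif also carried Top2b at high shares, namely 73.9% of distal anchors (73.1 to 74.6%) and 72.0% of the 5056 promoter other CAC sites with motif (70.7 to 73.2%). Stag1 went the other way, with 72.4% against 83.8%, lower by 11.4 points on 19 of 19 autosomes (adjusted permutation p = 1.87e-05). In the 4 bins of CTCF signal, from the weakest, Stag1 was flagged at 69.5, 67.2, 70.5 and 82.3% without the motif and at 67.8, 71.2, 80.4 and 91.3% with it. The mean difference over bins was -5.29 points (adjusted permutation p = 1.24e-05), and in the lower 2 bins the intervals overlapped. Stag2 was flagged at 94.5% and 95.3% (adjusted permutation p = 0.206). Averaged over the bins its difference turned to 1.29 points (adjusted permutation p = 0.0195), with 95.1% against 89.3% in the weakest bin.

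The Top2b difference was largest among weak sites. In the bin of up to 49 CTCF fragments 75.6% of motif-less sites (72.3 to 78.6%) and 29.4% of sites with motif (27.1 to 31.9%) carried the flag. In the bin of 129 fragments and more the shares were 68.4% (65.0 to 71.6%) and 62.1% (61.0 to 63.1%). Among sites with motif the share rose with CTCF signal, while among motif-less sites it was 75.6, 71.4, 66.8 and 68.4% from the weakest bin to the strongest. The mean difference over bins was 31.6 points (adjusted permutation p = 7.08e-06). Adding the anchors to the class with motif reduced the difference to 10.6 points.

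**Figure D2:**
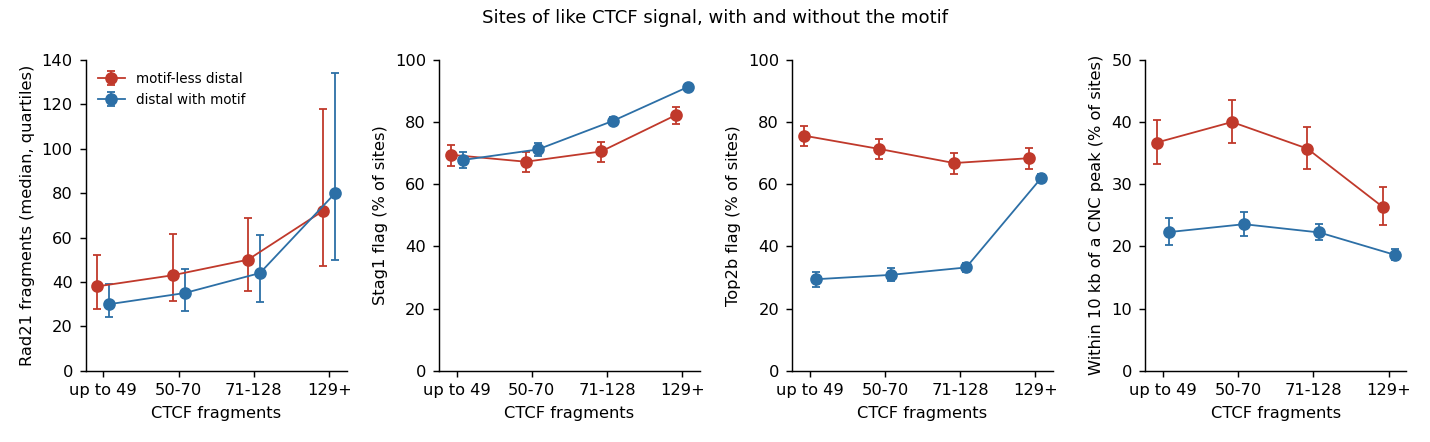
Motif-less distal sites (red) and distal sites with motif (blue) in 4 bins of CTCF fragments (horizontal axes). The panels give, from left to right, the median number of Rad21 fragments with quartile bars, and the shares in percent with 95% Wilson intervals of the Stag1 flag, of the Top2b flag and of sites within 10 kb of a CNC peak. In the weakest bin 75.6% of motif-less sites and 29.4% of sites with motif have the Top2b flag, and 36.7% and 22.3% lie within 10 kb of a CNC peak.

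Flags also combined differently. All of Stag1, Stag2 and Top2b were flagged at 1666 motif-less distal sites (55.5%) and at 44.6% of sites with motif. Stag2 and Top2b without Stag1 marked 429 motif-less sites, a share of 14.3% (13.1 to 15.6%), against 2.76% (2.51 to 3.03%) with motif. At promoters this combination marked 25.5% of motif-less sites and 18.9% of other CAC sites with motif. Stag1 and Stag2 without Top2b, by contrast, marked 16.6% of motif-less distal sites and 38.2% of distal sites with motif. No flag at all was set at 135 motif-less sites (4.49%).

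Compared with promoter sites that also lacked the motif, distal ones had more Stag1 and less Top2b. Stag1 was flagged at 72.4% of the distal and 56.7% of the promoter sites, a difference of 15.7 points (adjusted permutation p = 1.87e-05). Top2b was flagged at 70.5% and 75.4%, a difference of -4.88 points that was negative on 16 of 19 autosomes (adjusted permutation p = 0.0031). At CTCF scores of at least 300 the Top2b difference was -11.9 points (adjusted permutation p = 4.98e-05).

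Within the motif-less distal sites, both flags went with more Rad21. The 2117 sites with Top2b had a median of 53 Rad21 fragments and the 887 without had 39 (AUC = 0.670, adjusted permutation p = 1.87e-05, higher on 19 of 19 autosomes), although CTCF was slightly lower with the flag, at 69 against 77 (AUC = 0.469, adjusted permutation p = 0.00686). Among sites with a CTCF score of at least 300 the CTCF comparison turned, with an AUC of 0.538 that missed the threshold. Sites with Stag1 had 54 Rad21 fragments and sites without 37 (AUC = 0.702, adjusted permutation p = 1.87e-05). A stronger site is also easier to detect in the public data, so that detection and binding cannot be told apart in these shares.

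Motif-less distal sites lay nearer to CNC peaks than sites with motif did. The median distance to the nearest CNC summit was 19.2 kb against 42.7 kb (AUC = 0.375, shorter on 19 of 19 autosomes, adjusted permutation p = 1.87e-05). A CNC peak lay within 10 kb of 1042 motif-less sites (34.7%, 33.0 to 36.4%) and of 20.5% of sites with motif (19.9 to 21.2%), a difference of 14.1 points (adjusted permutation p = 1.87e-05). In the 4 bins of CTCF signal the shares were 36.7, 40.0, 35.7 and 26.4% without the motif and 22.3, 23.6, 22.2 and 18.7% with it. Motif-less sites with Top2b were near a CNC peak more often than those without, at 37.1% against 29.0% (adjusted permutation p = 0.000482).

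Their place relative to genes differed little from that of sites with motif. The median distance to a protein-coding start was 24.0 kb against 23.6 kb (AUC = 0.496, adjusted permutation p = 0.906). Averaged over the bins of CTCF signal, the motif-less sites lay nearer to these starts past the threshold (AUC = 0.476, adjusted permutation p = 0.00555). Introns held 1344 motif-less sites (44.7%) against 46.3% of sites with motif (adjusted permutation p = 0.295), and 1486 (49.5%) lay between genes. Coding exons held 100 and other exons 74. Anchors were slightly nearer, at a median of 43.2 kb against 48.7 kb (AUC = 0.477, adjusted permutation p = 0.00284).

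A start of another kind of transcript lay within 1 kb of 126 motif-less distal sites (4.19%, 3.53 to 4.97%), compared with 2.15% of sites with motif (adjusted permutation p = 1.87e-05). Of these starts 48 belonged to lincRNAs, 43 to processed transcripts, 12 to miRNAs and 10 to pseudogenes. Without CpG-rich windows the difference of 2.04 points shrank to 0.0881 points (adjusted permutation p = 0.78). The 33 sites just beyond the limit, 1.0 to 1.1 kb from a protein-coding start, had medians of 71 CTCF and 62 Rad21 fragments and were CpG-rich in 39.4% and Top2b-flagged in 72.7%, and the 37 motif-less CAC sites just inside it, at 0.9 to 1.0 kb, had 85 and 48 fragments and were CpG-rich in 59.5% and Top2b-flagged in 48.6%.

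The density of motif-less distal sites ranged from 0.99 per Mb on chromosome 14 to 1.78 per Mb on chromosome 19, around a median of 1.26. The share with Top2b lay between 64.7% on chromosome 5 and 79.6% on chromosome 16, above the highest share of sites with motif on any autosome, 51.0%. For Stag1 the motif-less shares of 60.7 to 79.8% lay below the lowest of the class with motif, 80.8%.

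The base composition around motif-less distal summits was richer in GC than at sites with motif. In the window of 201 bp the median GC share was 51.2% against 48.3% (AUC = 0.622, adjusted permutation p = 1.87e-05, higher on 19 of 19 autosomes), and the ratio of observed to expected CpG 0.257 against 0.197 (AUC = 0.596, adjusted permutation p = 1.87e-05). Against CNC peaks the medians of 51.2 and 50.7% did not differ past the threshold (AUC = 0.556, adjusted permutation p = 0.0754), and the AUC ran from 0.493 to 0.573 over the alternatives. CpG-rich windows, with a GC share over 50% and a CpG ratio over 0.6, made up 12.3% of the motif-less distal sites (369 sites, 11.2 to 13.5%), 4.84% of sites with motif, 2.40% of CNC peaks and 83.6% of motif-less promoter sites. Within the motif-less distal sites, the CpG-rich ones carried Stag1 less often, at 56.1% against 74.7% (adjusted permutation p = 0.000782), had 55 against 47 Rad21 fragments (AUC = 0.575, adjusted permutation p = 0.00967), and lay within 1 kb of another transcript's start in 20.9% against 1.86% (adjusted permutation p = 1.87e-05).

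Partial likeness to the CTCF motif remained at many of these sites. The best matrix score in 201 bp at the summit had a median of 3.91 with quartiles of 1.35 and 6.02, against 0.47 in windows 2 kb to either side, and reached at least 5 in 37.3% of summit windows and in 18.4% of flanking ones. The flanks were not screened for the motif, and 490 of 6008 reached the limit of 7.77. CNC peaks, with a median GC share of 50.7% against 51.2%, had a median best score of 1.72 and an upper quartile of 4.75. At motif-less promoter sites, with a median GC share of 68.2%, the median best score was 3.92. The best score anywhere in the peak reached the limit at 6 motif-less sites, the highest at 7.78, and that in the summit window, which can reach past the edge of a peak, did so at 5, the highest at 19.3.

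**Figure D3:**
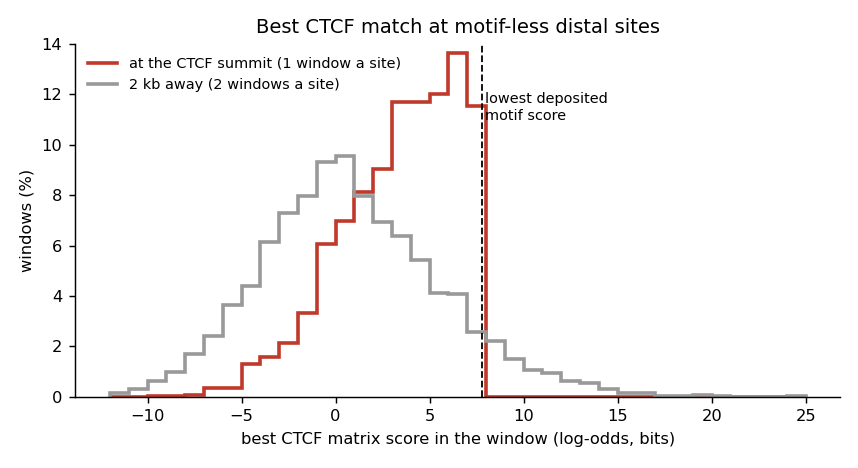
Best CTCF matrix score (horizontal axis, log-odds in bits) in windows of 201 bp at the summits of the 3004 motif-less distal sites (red) and in 6008 windows 2 kb away (grey), as percent of windows in bins of 1. The dashed line is the lowest deposited motif score. Summit windows centre on a median of 3.91 and all but 5 end at the line, which the choice of sites fixes, and flanking windows centre on 0.47.

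Sites whose best score was closer to the limit had more CTCF and Rad21 and closer summits. From the lowest to the highest quartile of the best score, the median number of CTCF fragments was 62, 68, 78 and 86, that of Rad21 fragments 43, 47, 51 and 55, and the distance between the summits 48, 41, 41 and 34 bp. The outer quartiles differed in CTCF (AUC = 0.639, adjusted permutation p = 1.87e-05), in Rad21 (AUC = 0.627, adjusted permutation p = 1.87e-05) and in summit distance (AUC = 0.417, adjusted permutation p = 0.000158). Stag1 was flagged at 77.2% of the upper and 69.4% of the lower quartile (adjusted permutation p = 0.00952), and Top2b at 70.0% and 75.5% (adjusted permutation p = 0.0281), although the Top2b difference missed the threshold under 4 alternatives. The Rad21 summit lay a median of 12 bp downstream of the CTCF summit along the strand of the best match in the upper quartile, positive on 16 of 19 autosomes (adjusted permutation p = 0.0004), and 2 bp in the lower one (adjusted permutation p = 0.404). The difference between these quartiles had an adjusted permutation p of 0.0535.

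Pieces of the motif core peaked at the summits. The words CCANNAGGG, AGGGGGC or AGGTGGC occurred within 100 bp of 702 motif-less summits (23.4%), against 8.31% of flanks, 34.8% of sites with motif and 10.4% of CNC peaks. In bins of 20 bp the share was 5.43% at the motif-less summit and 0.955% beyond 400 bp. This share is given as a description, because the motif rule acts on the same bases.

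Among all words of 6 letters, those most enriched at motif-less summits on odd-numbered autosomes held CpG. The ranking left the even-numbered autosomes aside. There, the word ranked highest, CGCGAG, occurred in 2.16% of motif-less windows and 0.683% of flanks, against 2.91% and 0.217% on the odd-numbered ones, and the next, CCGCGG, in 2.88% and 0.755%, against 4.03% and 0.434%. On the even-numbered autosomes, AGCGCC or its complement, the word GGCGCT, occurred in 12.5% of the motif-less summit windows, in 2.34% of flanks and in 12.1% of sites with motif. The word CGCCGC occurred in 6.40% of motif-less windows on these autosomes, in 1.19% of flanks and in 3.32% of windows with motif. For CCGCCG the shares were 5.54, 0.899 and 2.57%. Of the 10 members with the most CTCF fragments, 4 held AGCGCC within 60 bp of the summit and 3 held a core piece, and the windows at Cln6, Chd8, Crebbp and Nub1 are examples.

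Words of hepatocyte transcription factors, counted together, were found at a larger share of motif-less distal sites than of sites with motif, and at a smaller share than of CNC peaks. At least 1 word of 8 such factors lay within 100 bp of 946 motif-less summits (31.5%, 29.9 to 33.2%), compared with 24.8% of sites with motif, 39.2% of CNC peaks and 11.3% of motif-less promoter sites. Words of at least 2 of these factors lay at 178 motif-less sites (5.93%), at 2.84% of sites with motif and at 8.82% of CNC peaks.

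FOXA words were found at 8.99% of motif-less summits, 6.46% of their flanks, 6.74% of sites with motif and 11.6% of CNC peaks. All of these differences from the motif-less sites passed the test (adjusted permutation p = 0.0014 against flanks, 0.00329 against sites with motif and 0.00313 against CNC peaks). HNF4A, a nuclear receptor that keeps hepatocytes differentiated, had CAAAGTCCA or CAAAGGTCA at 1.83% of motif-less summits, 0.516% of flanks, 0.633% of sites with motif and 2.82% of CNC peaks, with adjusted permutation p-values of 6.8e-05, 0.000166 and 0.000782. C/EBP, a leucine zipper factor of liver metabolism, followed the same order, at 10.1, 7.69, 7.70 and 12.4%, while NFI had 5.96, 3.48, 3.33 and 7.73%, with the flanks slightly above the sites with motif. The HNF1 word GTTAATNAT was at 1.30% of motif-less sites, above flanks (0.599%, adjusted permutation p = 0.00464) and sites with motif (0.373%, adjusted permutation p = 0.000411). At CNC peaks it was at 0.951%, a difference from the motif-less sites that missed the threshold (adjusted permutation p = 0.0966). The difference from flanks also missed it at CTCF scores of at least 300 and around the Rad21 summit.

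Other words gave mixed results. ONECUT (ATTGATT) and NR5A2 (CAAGGTCA) words were less frequent than at CNC peaks, at 2.80 against 5.02% and 1.50 against 2.39%, and neither differed from flanks past the threshold. STAT5 words passed in none of the 3 comparisons. Among general factors, ETS (CCGGAAG), SP/KLF (GGGCGGGG) and E-box (CACGTG) words were above the flanks, at 2.03 against 0.766%, 2.50 against 1.17% and 4.36 against 2.75%. The YY1 word AAGATGGC was below them, at 0.799 against 1.40%. So was AGATAAG, bound by factors such as Gata4, with a difference of -0.682 points from a flank share of 2.68%. AAGATGGC ends in AGATGGC, which is close to the core piece AGGTGGC, so the motif rule acts on its bases too. The flanks were not screened for the motif, so the lower share of this word is given as a description. These 5 differences from flanks each missed the threshold under at least 1 alternative setting. Of 19 factors tested, the core pieces being described only, 8 had words higher and 2 lower than in flanks, 9 higher and 1 lower than at sites with motif, and 2 higher and 8 lower than at CNC peaks. The 9 became 6 in windows of 50 bp and 7 without CpG-rich windows, where the 8 lower than at CNC peaks became 6. Sites with motif hold a match of 19 bp by choice, which can leave less room for other words near the summit. How much of the difference from sites with motif this accounts for was not tested. The factor lower than at sites with motif was YY1, whose word shares bases with the motif, so the choice of sites bears on this difference. The factors higher than at CNC peaks were SP/KLF and NRF1. Both missed the threshold without CpG-rich windows, where HNF1 passed it instead with a difference of 0.491 points.

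Hepatocyte factor words, counted together, had a lower share at the motif-less CTCF summit than beside it, which is given as a description. In bins of 20 bp they occurred in 3.06% of sites at the summit, in a mean of 4.67% at 80 to 140 bp and in 3.21% beyond 400 bp. Around CNC summits the shares were 4.50, 5.27 and 3.32%, and around sites with motif 2.18, 3.38 and 3.09%. Within 50 bp of the motif-less summit the FOXA, C/EBP and HNF1 words no longer differed from flanks past the threshold (adjusted permutation p = 0.139, 0.829 and 0.817), and the difference for HNF1 turned to -0.0166 points. The HNF4A and NFI words stayed above flanks in this window, by 0.449 and 1.07 points (adjusted permutation p = 0.0348 and 0.0464). The Gh site printed above holds a FOXA word and a core piece within the same 121 bp.

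**Figure D4:**
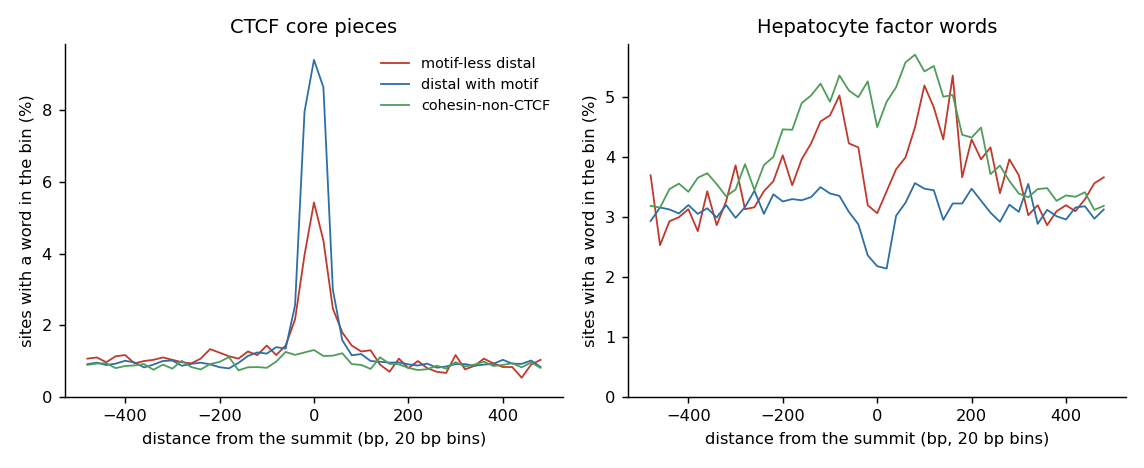
Share of sites (percent) with a word in each bin of 20 bp, by distance from the summit, for CTCF core pieces (left) and words of 8 hepatocyte factors (right), at motif-less distal sites (red), distal sites with motif (blue) and CNC peaks (green, Rad21 summit). Core pieces reach 5.43% at the motif-less summit and 9.41% with motif, and hepatocyte words fall to 3.06% at the motif-less summit between values of about 5% on either side.

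The gene lists differed in how many of their genes had a motif-less distal site nearby. Of all 21418 protein-coding genes on the autosomes 2740 (12.8%) had at least 1 such site within the gene or 20 kb of it. Of 26 genes for plasma proteins made by hepatocytes 12 had one (46.2%), and of 20 hepatocyte transcription factors 12 (60.0%). The lists of lipid metabolism, drug and bile acid metabolism, and urea cycle and gluconeogenesis had 5 of 14, 3 of 15 and 2 of 12. Of 14 housekeeping genes and 12 muscle genes 0 had one, and 1 of 11 neuron genes and 1 of 13 immune genes did. These lists are short, their genes partly neighbours that share sites, and no test was made on them.

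Densities per Mb of genes with their flanks were also counted. Motif-less distal sites numbered 1.80 per Mb over all genes with their flanks, 10.4 per Mb at the plasma proteins and 10.3 per Mb at the transcription factors. For CNC peaks the densities were 7.47, 45.1 and 48.2 per Mb, and for sites with motif 9.42, 20.1 and 23.0 per Mb. The lists of drug and bile acid metabolism, lipid metabolism, and urea cycle and gluconeogenesis had 3.47, 3.49 and 3.70 motif-less sites per Mb, beside 13.01, 18.9 and 18.5 with motif and 27.7, 37.0 and 36.97 CNC peaks. Neuron and immune genes had 0.696 and 1.06 motif-less sites per Mb, 6.96 and 7.43 with motif and 3.48 and 5.30 CNC peaks. Housekeeping and muscle genes, with 0 motif-less sites, had 18.6 and 23.8 sites with motif per Mb and 18.6 and 1.32 CNC peaks. The median gene length was 15.5 kb over all genes, 8.60 kb for the plasma proteins and 37.2 kb for the transcription factors.

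**Figure D5:**
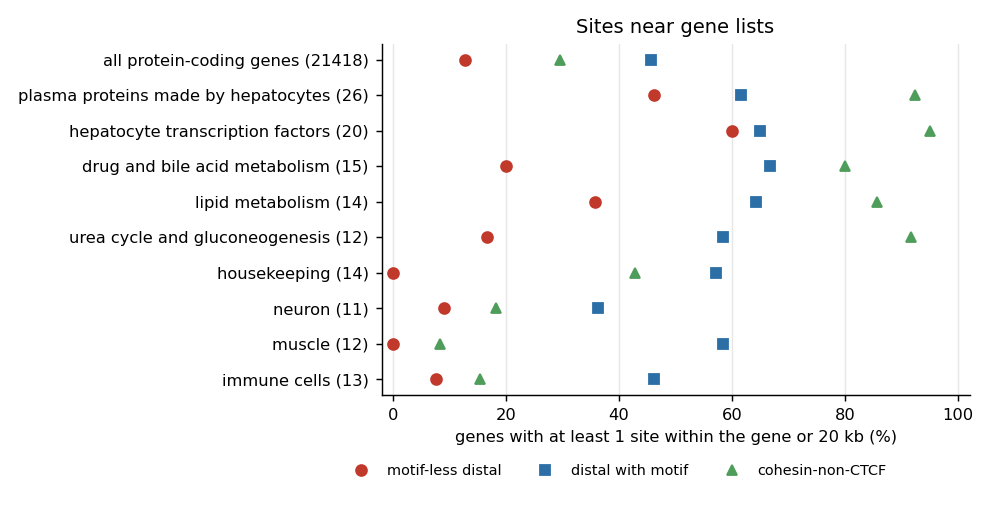
Percent of genes in each list (horizontal axis, number of autosomal genes in brackets) with at least 1 motif-less distal site (red circles), distal site with motif (blue squares) or CNC peak (green triangles) within the gene or 20 kb. For all genes the values are 12.8, 45.6 and 29.5%. Motif-less sites reach 46.2% of plasma protein genes and 60.0% of hepatocyte transcription factors, and CNC peaks 92.3 and 95%.

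At the apolipoprotein cluster on chromosome 9, 3 motif-less sites lay within 20 kb of Apoa4 and 2 of them within 20 kb of Apoa5, a regulator of plasma triglycerides. They had 65, 180 and 331 CTCF and 51, 64 and 44 Rad21 fragments. The site chr9:46063951-46064348, whose FOXA word is printed above, lay 0.967 kb from a CNC peak. Among the other plasma protein genes, the complement gene C3 held an intronic site with 141 CTCF and 134 Rad21 fragments whose summits were 703 bp apart. A coding exon of Serpinc1, which encodes antithrombin, held a site with 208 and 86 fragments and all flags, 0.627 kb from a CNC peak.

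Among the transcription factors, Rxra, the partner of many nuclear receptors, held 3 intronic sites with 52, 232 and 54 CTCF and 57, 96 and 92 Rad21 fragments. The growth hormone effector Stat5b had 3 within reach, with 103, 84 and 36 CTCF and 68, 76 and 80 Rad21 fragments, the last in an intron of Stat5a. Onecut1 and Prox1 had 2 each. Both Onecut1 sites and 1 of the Prox1 sites were CpG-rich, and the site in the Onecut1 coding exon carried no flag.

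In metabolism, Cyp7b1, an enzyme of the alternative bile acid pathway, had 2 sites and Por, which passes electrons to cytochromes P450, had 1. Elovl6, which elongates fatty acids, had 141 CTCF and 140 Rad21 fragments at a CpG-rich intronic site 1.52 kb from its start and 0.852 kb from a CNC peak. Srebf1, the master regulator of lipid synthesis, had a site 2.40 kb upstream with 241 and 68 fragments. Scarb1, Lipc, Cyp2d9 and Hpd each had 1 site with 38 to 73 CTCF fragments, and Ass1 of the urea cycle had 2, with 54 and 98. Outside the liver lists, the neuron gene Slc17a7 had 1 site, without flags, and Cd79b of B cells had the site downstream of Gh, with 53 CTCF and 25 Rad21 fragments.

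The members with the most CTCF fragments were mostly CpG-rich sites between genes. A site 9.92 kb upstream of Cln6 had 1934 CTCF and 190 Rad21 fragments. Another, 38.3 kb upstream of the translation factor gene Eef1a1, had 1143 and 201, with summits 613 bp apart. An intron of the homeobox gene Hoxa3 held a site with 1023 and 121 fragments, and sites near the chromatin remodeller gene Chd8, Hist1h2ah, Crebbp, Slc6a4, Nub1 and Epcam had 761 to 963 CTCF fragments. Of the 10 members with the most CTCF fragments 7 were CpG-rich, 9 lay between genes, 9 carried Top2b and 9 Stag1. Of all members 12.3% were CpG-rich, 49.5% lay between genes, 70.5% carried Top2b and 72.4% Stag1.

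The members with the most Rad21 fragments were of several kinds. At Tmcc2 the Rad21 summit had 784 fragments and the CTCF summit only 74, the summits were 550 bp apart, and an anchor lay 0.573 kb away. At Cdc42ep2 548 Rad21 and 83 CTCF fragments had summits 612 bp apart. In contrast, Epcam had 708 Rad21 and 761 CTCF fragments with summits 29 bp apart, and Slc6a4, the serotonin transporter gene, 635 and 861 fragments 12 bp apart. A site in an intron, 83.6 kb from the start of Smc5, had 599 Rad21 and 609 CTCF fragments at 1 position. These were 37.9-fold and 36.3-fold over background, and neither Stag flag was set. The part of repeated sequence in the counts at the Smc5 site was not tested, because the genome used here marks no repeats. Wdr5, Cbln3, Nxph3, 4731417B20Rik and Mknk2 completed the list, with 433 to 592 Rad21 fragments. Of these 10 sites 1 was CpG-rich and all 10 carried Top2b, against 12.3% and 70.5% of all members.

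Most members stood alone. Of groups formed by neighbours less than 10 kb apart, 2765 were single sites, 112 pairs and 5 triples. The triple with the most Rad21 lay over 3.58 kb of an intron of Zmiz1, a transcriptional coactivator, with 175, 73 and 105 CTCF and 111, 83 and 106 Rad21 fragments and all flags at each site. A triple in the Notch coactivator gene Maml3 had 64, 39 and 44 CTCF and 57, 66 and 49 Rad21 fragments, all with Top2b. The triple at Ppp1r3g, a subunit that directs a phosphatase to glycogen, had 43 to 60 CTCF and 31 to 35 Rad21 fragments with all flags. Triples also lay at Psen2 and Adck3 and, in a gene-poor stretch over 460 kb from the start of Vrk1, at 3 sites without Top2b. The strongest pair, in exons at Cbln3 and Nynrin, had 730 and 653 CTCF but 586 and 137 Rad21 fragments.

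By gene, the most members belonged to long genes. The model Gm20388, which spans 4435 kb, held 21. Arhgap26 had 9, the clock-linked nuclear receptor gene Rora 7 over 734 kb, Maml3 7 over 417 kb, Dock4 5 and Lpp 5. Zmiz1, Gm12216, Irf1, Pcdhgc5, Mgll and Nedd4l had 4 each. These genes were picked for their motif-less sites. Distal sites with motif numbered 97 at Gm20388, 17 at Rora, 6 at Arhgap26, 5 at each of Maml3, Lpp, Zmiz1 and Nedd4l, 2 at Irf1 and Gm12216, and 1 at each of Dock4, Pcdhgc5 and Mgll. Irf1, an interferon response gene of 8.36 kb, shared its 4 sites with the neighbouring model Gm12216. CNC peaks numbered 86 at Gm20388, 21 at Lpp, 17 at Arhgap26, 15 at Nedd4l, 14 at Rora and 13 at Zmiz1. There were 9 at Dock4, 8 at Maml3, 7 at the lipase gene Mgll, 6 at Irf1, 4 at Gm12216 and 0 at Pcdhgc5.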

How the data were processed

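The authors pooled the reads of all livers for each factor, mapped them to mm9 with Bowtie2, kept uniquely mapped reads and called peaks with MACS2. The deposited score is 10 times the −log10 q-value, and the deposited fold is the ratio of summit fragments to local background after 1 was added to each. The −log10 p-value that was deposited beside it comes from a Poisson model. The authors' class list, from CTCF peaks present in several livers, adds classes, a log-odds motif score and overlap flags. Apart from these flags, which rest on public liver data, 0 columns belonged to other samples.

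Fragments at each summit were recovered from the fold and the −log10 p and were whole within 0.02 at 99.996% of CTCF and 99.997% of Rad21 peaks. The pooled lists carry no read totals, so depth per library was not computed here. Each site was joined to the strongest Rad21 peak sharing at least 1 bp. CNC peaks shared none with a pooled CTCF peak. Windows of 201 bp were read from NCBIM37 and genes from its GENCODE annotation. The CTCF matrix was MA0139.1, with a limit at the lowest deposited motif score. Words were searched on both strands, and overlapping words were each counted. Fragments, widths and distances were compared as per-autosome differences of log2 medians, and shares as percentage points, by exact sign-flip permutation. The smallest p this allows is 3.81e-06. Benjamini-Hochberg adjustment covered the 98 tests of the main setting. The p-values of each alternative setting were adjusted separately, over the tests made under it. Under 0.05 after adjustment a difference passed. KS D follows the study's test. Scripts were tested on simulated data and ran in Python 3.11.15 with NumPy 2.4.6, SciPy 1.17.1, pandas 2.3.3 and Matplotlib 3.10.9.

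The members, words and lists were chosen with earlier results of these data known. Genes were named as the nearest start to the 10 members with the most CTCF and the 10 with the most Rad21 fragments, the 12 genes with the most members within 20 kb, the genes of the 6 densest groups, and up to 4 genes of each list with most members, ties going to more Rad21. An item that this rule names is not reported here. Among words, the 6-letter ones were ranked by script. A planned share of repeat-masked bases was not computed, because the genome used here marks no repeats. Tests within the motif-less sites were added after the data were seen. Alternatives covered the distance limit, the starts used, the peak threshold, bins of CTCF signal, window sizes, flanks and anchors.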

Additional observations from a re-analysis of the deposited data

Results flagged for a closer look

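Sites on the sex chromosomes were outside every comparison above and drew attention because signal was present there. On chromosome X 53 sites met the same description, with medians of 70 CTCF and 42 Rad21 fragments. CTCF fragments ran from 34 to 287 and Rad21 fragments from 22 to 130. Of them 30 carried the Stag1, 48 the Stag2 and 24 the Top2b flag.

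On chromosome Y 41 such sites were listed, at 2.58 per Mb of the assembly against 0.318 per Mb on X, with medians of 82 CTCF and 64 Rad21 fragments and highest values of 370 and 357. The Stag1 flag was set at 0 and the Stag2 flag at 0 of these 41 sites, and the Top2b flag at 17. The part of repeated sequence and of the sex of the animals in the public data was not tested.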

How the results depend on the processing

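No paired analysis was possible because the deposited lists are pooled over the libraries of each factor and hold no separate replicates, and for the same reason no replicate was left out. Over all alternatives 524 of 627 values kept their direction and side of the threshold. Each alternative was adjusted over its own tests, which can by itself move a value across the threshold. Leaving out CpG-rich windows or sites overlapping more than 1 Rad21 peak was chosen after seeing the data. Directions were read from the mean difference over autosomes, so an AUC near 0.5 can stand on the other side of it. The cause of the changes below was not tested.

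Between motif-less distal sites and those with motif, averaging over bins of CTCF signal reversed Rad21 (AUC 0.581), peak width (AUC 0.546) and Stag2 (1.29 points), and gave a shorter distance to protein-coding starts past the threshold (AUC 0.476). That distance otherwise reversed, at AUCs of 0.501 beyond 5 kb, 0.499 with starts of every biotype, 0.498 at CTCF scores of at least 300, 0.517 with anchors added, 0.498 with no scanned match within 250 bp, 0.506 without CpG-rich windows and 0.497 without sites of several Rad21 peaks. At CTCF scores of at least 300 the width difference missed the threshold (AUC 0.488) and Stag2 passed it (-1.995 points), as it did with anchors added (-1.30 points). The intron share reversed with anchors added (1.24 points) and without CpG-rich windows (0.0968 points), where starts of other biotypes also missed the threshold (0.0881 points).

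The GC difference from CNC peaks passed the threshold beyond 5 kb (AUC 0.551), as a mean per autosome or by the Kolmogorov-Smirnov test over peaks (AUC 0.556), in windows of 50 bp (AUC 0.573) and 250 bp (AUC 0.571) and without sites of several Rad21 peaks (AUC 0.555). It reversed at scores of at least 300 (AUC 0.493) and without CpG-rich windows (AUC 0.502). Within the motif-less sites, scores of at least 300 reversed the Top2b comparisons of CTCF fragments (AUC 0.538) and of CpG-rich windows (0.838 points).

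Words higher than in flanks numbered 3 instead of 8 in windows of 50 bp, where HNF1 reversed (-0.0166 points), and 5 without CpG-rich windows. Those lower than in flanks, 2 at first, numbered 0 with starts of every biotype or at scores of at least 300 and 1 under 6 other settings. Those lower than at sites with motif rose from 1 to 2 around the Rad21 summit. The 1 was the YY1 word, on whose bases the motif rule acts. Those higher than at CNC peaks, 2 at first, numbered 0 at scores of at least 300 and in windows of 50 bp, and 1 beyond 5 kb and around the Rad21 summit (SP/KLF) or without CpG-rich windows (HNF1). In windows of 250 bp, 10 were higher than in flanks and 3 higher than at CNC peaks (ETS, NF-Y and SP/KLF).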
